A study of Mus musculus with 24 samples.

Results

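Genes of the mitotic spindle, the kinetochore and the condensin complex were followed in CD8+ T cells before and after transplantation. The 49 genes were taken by the gene name printed in the scanner files, which gave 66 probes on a one-colour Agilent mouse array that names 23878 genes. All 49 are textbook components or regulators of cell division. Of the 49 genes, 38 gave a probe bright enough to be tested, among 9446 tested genes in all. The other 11 are described at the end with the readings they gave. On mm9, the build of the probe coordinates in the file headers, the probes of the genes described most fully lie at chr2:126929625-126929684 (Ncaph), chr4:118105534-118105593 (Cdc20), chr14:68295097-68295156 (Cdca2), chr3:68838437-68838496 (Smc4), chr7:129313220-129313279 (Plk1), chr7:134171255-134171314 (Kif22) and chr11:117716978-117717037 (Birc5), each assigned to the named gene by the annotation of the array, which gives no exon.

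The study followed T cells in a mouse model of acute graft-versus-host disease, the attack of transplanted T cells on the recipient's tissues. Donor cells were CD8+ T cells of the OT-I line, C57BL/6-Tg(TcraTcrb) 1100Mjb/J, whose transgenic T-cell receptor recognises a peptide of ovalbumin, and these cells carried the CD45.1 allele. Recipients were m-act OVA females of the line C57Bl/6-Tg(CAG-OVA)-916Jen/J, 8 to 16 weeks old, which express ovalbumin from the broadly active CAG promoter. They were irradiated with 11 Gy in 2 doses and received bone marrow and spleen cells. All graft cells other than the OT-I T cells, and all recipient cells, carried CD45.2. The labels call the marrow allogeneic although donors and recipients are both listed as C57Bl/6.

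There were 4 samples of graft cells collected on day 0, described in the design text as naive, and 5 samples each from blood, liver, lung and small intestine on day 4. In every group the CD45.1 cells were pulled out with antibody-coated magnetic beads, and their RNA (300 pg) was amplified linearly in 2 rounds. Cells of a bead-selected sample are a mixture with whatever else the beads kept, and the receptor is fixed, so these cells stand for a single antigen specificity. The graft samples lack the irradiated host, the transfer and the antigen all at once. Nothing in the labels says that the samples of a group are separate animals, and p-values then measure only the spread between these samples.

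Background on these genes is textbook cell biology. A cell entering mitosis compacts its chromosomes with condensin, builds a spindle with motor and crosslinking proteins, and attaches chromosomes to it at kinetochores, which assemble on centromeres. Checkpoint proteins at unattached kinetochores hold back the anaphase-promoting complex until every chromosome is attached, after which cohesion is lost, chromosomes separate and the cell is divided by the cytokinesis machinery. Resting T cells hold most of these transcripts at low levels and raise them when an antigen drives them to divide.

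Levels are log2 signals relative to the 75th percentile of the gene probes on the same array, so 0 means as bright as that percentile. They can be compared between arrays for a probe but not between probes. A probe is called well above background when the scanner software flags it so. Differences are differences of these log2 levels from 1 limma fit over all 24 arrays. A gene is called at a Benjamini-Hochberg adjusted p below 0.05 over the 9446 genes.

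The arrays were checked before the results. Cd8a and Cd8b1, which encode the CD8 co-receptor, and Cd3e, part of the T-cell receptor complex, were well above background on all 24 arrays. The 4 graft arrays were on a slide of their own, so slide and graft cannot be told apart. The 20 day 4 arrays were on 5 slides with 1 array of each site per slide, numbered here as the samples are. The arrays labelled liver 5 and intestine 5, which shared a slide, went against their labels. The summed level of 9 intestinal epithelial genes (log2 of the sum) was 0.78 to 1.35 on liver 1 to 4 but 4.69 on liver 5. The same sum was 5.11, 7.19, 2.02 and 8.02 on intestine 1 to 4 but 0.59 on intestine 5. The sum was not particular to intestine, at 4.00, 3.98, 1.37, 6.12 and 5.98 on lung 1 to 5. There Lyz1, 1 of the 9, read 3.66, 3.71, -2.01, 6.05 and 5.92. On liver 5, Krt8, Lgals4, Lyz1 and Krt20 were well above background, and Vil1, Fabp2, Cdh17, Epcam and Muc2 were not. Across tested genes, liver 5 correlated most with intestine 1 (r = 0.936), and intestine 5 most with liver 1 (r = 0.958). The mean r with the other liver and the other intestine arrays was 0.900 and 0.909 for liver 5. For intestine 5 it was 0.946 and 0.833. Intestine 3 also correlated more with liver, at 0.931 against 0.870. Both keep their labels here, and the main counts and differences for liver and intestine are given with and without them.

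Other cells were also measured in these samples. The summed level of 9 B cell genes was 7.77 to 8.13 on graft arrays and 1.29 to 4.20 on day 4 arrays, and 6 of the 9 were well above background on every graft array. The sum of 11 neutrophil and monocyte genes was 8.57 to 8.96 in the graft and 5.56 to 7.62 at day 4. The day 4 sum rested largely on Csf3r, with a graft mean of 6.41 and day 4 site means from 5.62 (intestine) to 6.22 (liver). S100a8 went from a graft mean of 6.64 to site means between -2.29 (intestine) and 0.04 (lung). Camp went from 6.28 to between -3.07 (blood) and 0.24 (liver). Of the 11 genes, 1 was well above background on no graft array and 8 on no blood array. The sum of 7 CD8 T-cell genes was 7.79 to 8.46 in the graft and 7.22 to 9.20 at day 4. In bulk samples, fewer cells of a type and less RNA per cell cannot be told apart. The part of these cells in the differences between graft and day 4 was not tested.

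Mitotic genes as a set were low in the graft and high at every day 4 site. The mean level over the 38 tested genes was -0.69, 0.11, -0.65 and -0.56 on graft 1 to 4. It was 2.07 to 2.99 on the blood arrays and 2.53 to 3.06 on liver 1 to 4. It was 1.16 to 2.62 on the lung arrays and 0.82 to 1.47 on intestine 1 to 4. The arrays labelled liver 5 and intestine 5 read 1.56 and 2.43. No day 4 array overlapped the graft range, and group means were -0.45 ± 0.37 (SD, n = 4) in the graft, 2.68 ± 0.36 (SD, n = 5) in blood, 2.58 ± 0.60 (SD, n = 5) in liver, 1.99 ± 0.57 (SD, n = 5) in lung and 1.40 ± 0.63 (SD, n = 5) in intestine. Of the 38 genes, 22 were bright enough to be tested only through day 4 arrays. Their part in this gap was largely fixed in advance, and no mean was taken over the other 16 alone. Of all 49 genes, 16 to 25 were well above background on a graft array, against 37 to 40 on a blood array, 33 to 40 on a liver array, 28 to 38 on a lung array and 27 to 40 on an intestine array.

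**Figure D1:**
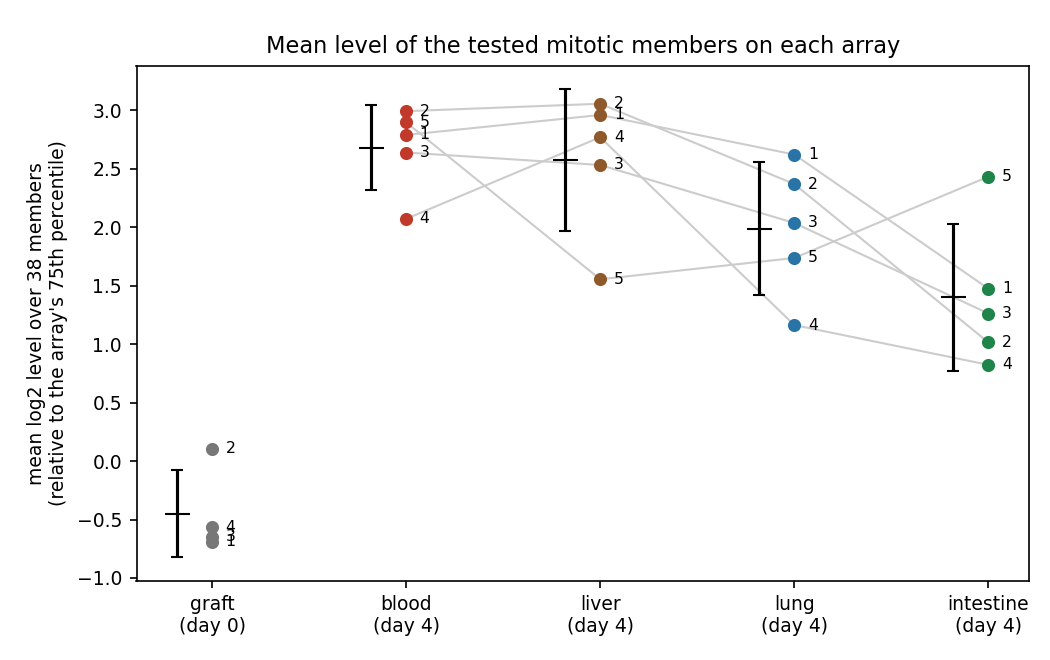
Mean log2 level over the 38 tested mitotic genes on each array, relative to the array's 75th percentile, with group mean and SD beside the points; grey lines join arrays of a slide. Graft arrays sit between -0.69 and 0.11, blood arrays between 2.07 and 2.99, and the arrays labelled liver 5 and intestine 5 lie outside the other 4 of their groups. Of the 38 genes, 22 were bright enough to be tested only through day 4 arrays.

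Against the graft, 33 of the 38 tested genes were higher in the mean of the 4 day 4 sites and none was lower, where 34.3% of all tested genes were called higher. Their median difference was 2.44, against 0.23 over all genes. A gene that entered the test only because it was bright at day 4 was likely to differ for that reason. Of the 38, 22 entered that way, and all 22 were called higher. The other 16 were bright enough on the graft arrays themselves, and 11 of these were called higher, where 27% of the 7895 genes that were bright enough there were. The higher share among all genes that entered only through day 4 was not counted. The counts by role below share this limit. By site, 32 genes were higher in blood (35.3% of all genes), 34 in liver (34.4%), 30 in lung (25.8%) and 23 in intestine (22.1%), and none was lower. These comparisons share the same 4 graft arrays. Other scalings gave 28 to 31 members higher for the mean of the sites, while they moved the median of all genes from 0.23 to between -0.32 and 0.29 and the higher share of all calls from 64.3% to between 36.5% and 71.1%. Under other scalings some members were called lower than in the graft: 3 in intestine with quantile normalisation, the deposited table or the median of detected probes, and with that median also 2 in lung and 1 (Smc4) for the mean of the sites. In 21 of the 38 genes all 20 day 4 arrays lay above every graft array, which held for 10.9% of all genes. For genes that entered the test only through day 4, such a separation was largely fixed in advance. The 21 were not split by how they entered. Leaving out liver 5 and intestine 5 gave 33 genes higher for the mean of the sites, 35 for liver and 21 for intestine, with Smc4 then lower in intestine.

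**Figure D2:**
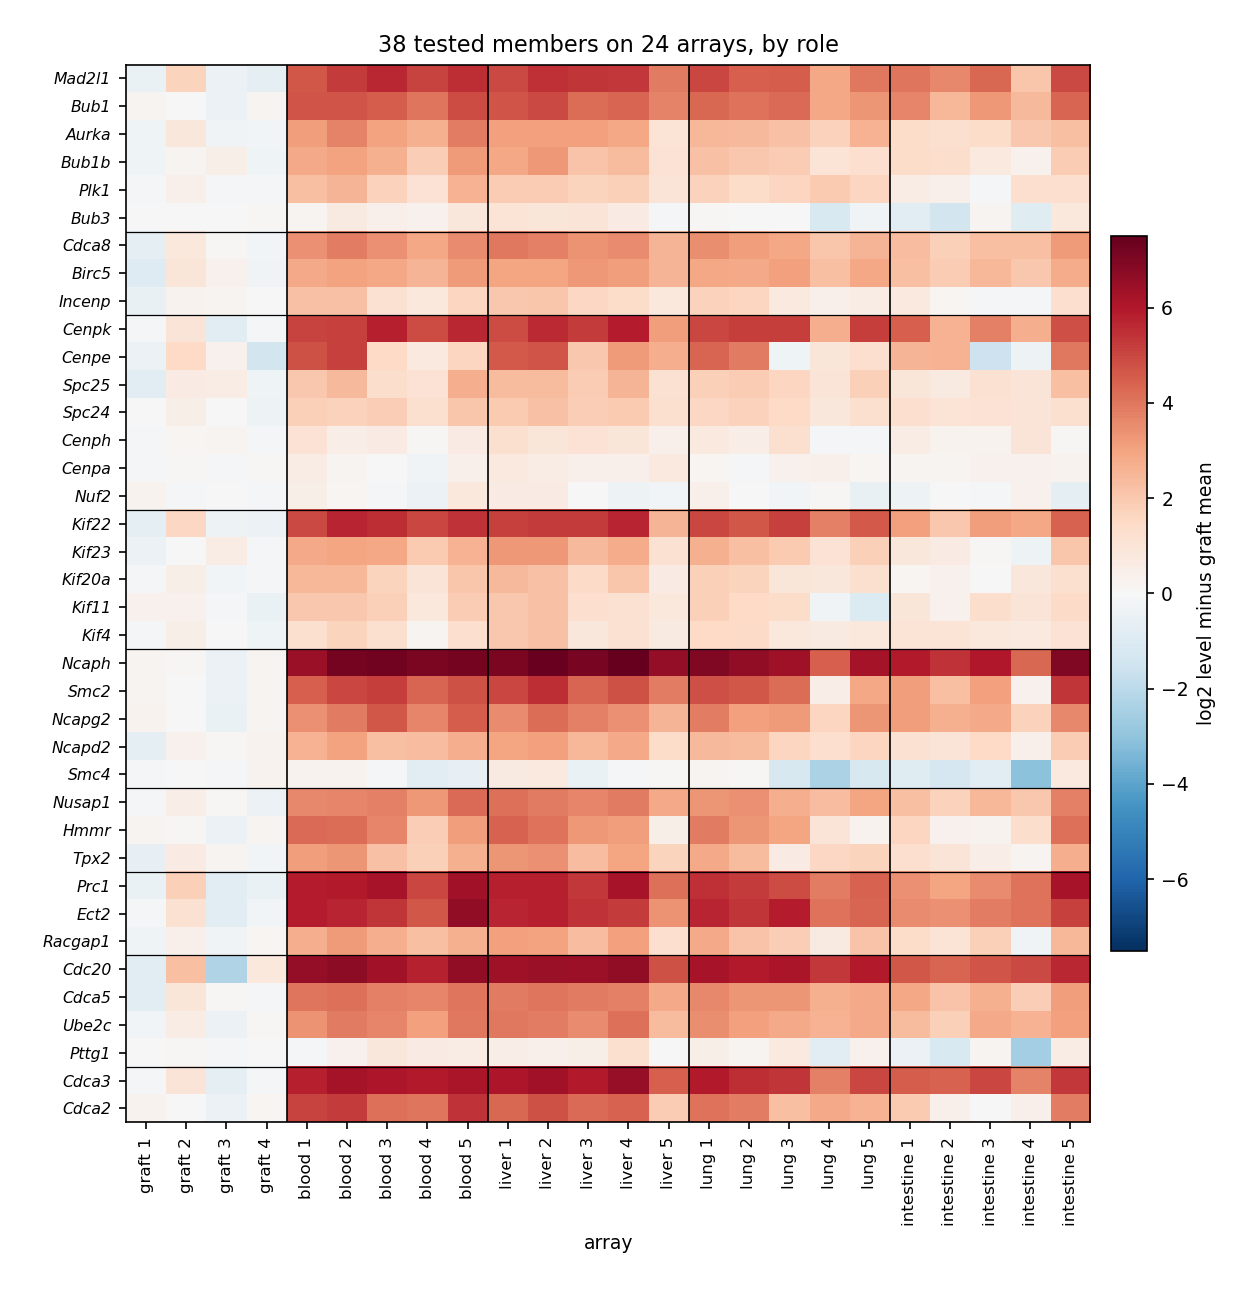
Log2 level of each of the 38 tested genes on each of the 24 arrays minus that gene's graft mean, ordered by role. Of the 38 rows, 33 are called higher at day 4; Bub3, Cenpa, Nuf2, Smc4 and Pttg1 are not, and the intestine columns other than intestine 5 are paler than the blood columns.

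Checkpoint proteins and the mitotic kinases came up in 5 of 6 tested genes. Of these 6, only Plk1 and Bub3 were bright enough on the graft arrays themselves. Aurka encodes Aurora A, the kinase of the spindle poles, and it read -0.63, 0.53, -0.56 and -0.52 in the graft. At day 4 it read 2.84, 3.43, 2.70, 2.37 and 3.53 in blood and 1.07, 0.91, 1.06, 1.75 and 1.97 in intestine. It was well above background on 2 of 4 graft arrays. All 20 day 4 arrays were above every graft array, and the difference was 2.46 ± 0.31 (SE; limma adjusted p = 9.32e-07). Plk1, the polo-like kinase needed from mitotic entry to cytokinesis, was measurable on every graft array, at 1.19, 1.71, 1.25 and 1.24. It read 3.60, 3.87, 3.09, 2.42 and 3.98 in blood, and 1.92, 1.70, 1.24, 2.61 and 2.61 in intestine, where the ranges of graft and intestine overlap. The difference was 1.51 ± 0.26 (SE; limma adjusted p = 3.87e-05) for the mean of the sites but 0.67 ± 0.31 (adjusted p = 0.102) for intestine alone, or 0.52 (adjusted p = 0.204) without liver 5 and intestine 5.

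Mad2l1 and Bub1 act at the spindle checkpoint, the first as the inhibitor of the anaphase-promoting complex, the second as a kinetochore kinase. Mad2l1 read -2.54, -0.38, -2.47 and -2.74 in the graft and 2.61 to 3.60 in blood, a difference of 4.55 ± 0.44 (SE) for the mean of the sites. Graft 2 was the graft array on which Mad2l1 was well above background. Its difference thus rests in part on background readings, and was 2.36 at the lowest under other processing. Bub1 was above background on no graft array and on 17 of 20 day 4 arrays, and was at least 3.86-fold higher at day 4. Here and below, "at least" sets the day 4 mean against the lowest signal that counts as above background on the graft arrays. Bub1b, the BubR1 checkpoint kinase, was at least 1.27-fold higher. Bub3, their binding partner, did not follow. It read 2.08, 2.12, 2.08 and 2.23 in the graft and 2.35 to 2.96 in blood but 0.75 to 2.92 in intestine, a difference of 0.12 ± 0.29 (SE; limma adjusted p = 0.733).

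The chromosomal passenger complex corrects faulty attachments and later guides cytokinesis, and all 3 of its tested genes were higher. Birc5, which encodes survivin, read 2.41, 4.27, 3.69 and 3.14 in the graft. In blood it read 6.23, 6.37, 6.28, 5.90 and 6.59, and in intestine 5.61, 5.29, 5.88, 5.42 and 6.16. The groups do not overlap, and the day 4 mean was 6.68-fold higher (2.74 ± 0.24 log2, SE; limma adjusted p = 4.24e-09). Cdca8, which encodes borealin, was higher by 3.02 ± 0.28 (SE). Incenp, the scaffold that carries the Aurora B kinase, was higher by 1.13 ± 0.30 (SE; limma adjusted p = 0.00327) over the sites, and by 0.37 ± 0.37 (adjusted p = 0.454) in intestine alone, or 0.15 (adjusted p = 0.779) without liver 5 and intestine 5. Over the sites Incenp was not called with quantile normalisation, the deposited table or either scaling on detected probes, at 0.59 to 0.72 (limma adjusted p = 0.0806 to 0.11).

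Centromere and kinetochore genes were the least uniform role, with 5 of 7 tested genes higher. Of these 7, Cenpk, Cenpe and Cenph were bright enough to be tested only through day 4 arrays. Cenpk, of the inner kinetochore, was above background on no graft array and read 2.30 to 3.23 in blood, at least 6.79-fold higher over the sites. Spc24 and Spc25, subunits of the Ndc80 complex that grips microtubules, were higher by 1.50 ± 0.19 and 1.69 ± 0.32 (SE), and both were well above background on all 24 arrays. Nuf2, another subunit of that complex, read -0.13, -0.48, -0.41 and -0.46 in the graft and -0.79 to 0.40 in blood, a difference of 0.02 ± 0.22 (SE; limma adjusted p = 0.947). Its probe was well above background on 20 of 24 arrays, and on 2 of 5 in lung. Cenpa, the histone H3 variant that marks centromeres, read 0.26, 0.46, 0.25 and 0.43 in the graft and 0.07 to 0.90 in blood, with a difference of 0.28 ± 0.15 (adjusted p = 0.112). Of the blood arrays, only blood 2 for Nuf2 (-0.25) and blood 3 for Cenpa (0.33) lay within the graft range. The others lay on both sides of it. Cenpe, the kinesin-like motor of the kinetochore, varied widely among blood arrays and was well above background on 2 of 4 graft arrays. It read 4.25, 4.58, 0.93, 0.20 and 1.05 in blood, and its difference of 2.42 ± 0.92 (SE; limma adjusted p = 0.0315) was no longer called without graft 1, 3 or 4, at 1.95 to 2.53. Nor was it called under any of the 5 other scalings, at 1.61 to 2.26. Cenph, well above background on 1 graft array, differed by 0.59 ± 0.22 (adjusted p = 0.028) and was no longer called without graft 1 or graft 4, at 0.54 and 0.53, or with detected-probe scaling, at 0.18 and 0.04.

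All 5 tested kinesins, motors that move along or depolymerise spindle microtubules, were higher. Only Kif20a among these 5 was bright enough on the graft arrays themselves. Kif22, the chromosome-arm motor, read -2.41, -0.18, -2.12 and -2.14 in the graft. In blood it read 3.22, 3.98, 3.82, 3.32 and 3.70, and in intestine 1.39, 0.32, 1.42, 1.18 and 2.74. It was above background on graft 2 alone of the 4 graft arrays. Every day 4 array was above every graft array, with a difference of 4.46 ± 0.44 (SE; limma adjusted p = 2.92e-08). This size rests in part on background readings, and was 2.47 at the lowest under other processing. Kif23, a motor of the central spindle, was above background on no graft array and at least 1.54-fold higher over the sites, while it was above background on 1 of 5 intestine arrays and not called there (adjusted p = 0.261). Kif20a, which also works at the central spindle, was higher by 1.36 ± 0.30 over the sites and by 0.50 ± 0.36 (SE; adjusted p = 0.301) in intestine, or 0.32 (adjusted p = 0.486) without liver 5 and intestine 5. Kif4, a chromokinesin well above background on 2 of 4 graft arrays, was higher by 1.11 ± 0.26 (SE), a call lost with both scalings on detected probes, at 0.70 and 0.56 (limma adjusted p = 0.0758 and 0.0933). Kif11, which pushes the spindle poles apart, was above background on no graft array and at least 1.195-fold higher (limma adjusted p = 0.0105), a call lost without graft 4 and with both scalings on detected probes.

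Condensin subunits were higher in 4 of 5 tested genes. Among these 5, only Ncapd2 and Smc4 were bright enough on the graft arrays themselves. Ncaph, the kleisin subunit of condensin I, was above background on no graft array and on all 20 day 4 arrays. It read -2.73, -2.88, -3.39 and -2.76 in the graft. In blood it read 3.55, 4.26, 4.32, 4.12 and 4.23, and in intestine 2.99, 2.47, 3.05, 1.34 and 4.02. Every day 4 array lay at 1.34 or above, and the day 4 mean was higher by at least 19.4-fold (adjusted p = 6.97e-12 in limma). Smc2, an ATPase of both condensins, was at least 3.67-fold higher, and Ncapd2 and Ncapg2, non-SMC subunits of condensin I and II, were higher by 2.05 ± 0.29 (SE) and by at least 2.2-fold. Smc4, the partner ATPase of Smc2, was well above background on every array. It read 3.21, 3.32, 3.26 and 3.58 in the graft. At day 4 it read 3.58, 3.59, 3.19, 2.52 and 2.73 in blood, and 2.46, 2.08, 2.52, 0.29 and 4.06 in intestine. The mean difference was -0.50 ± 0.44 (SE; limma adjusted p = 0.347), and it was called lower, at -1.05, when arrays were scaled on the median of detected probes. Without liver 5 and intestine 5, Smc4 fell in intestine by 1.51 on the log2 scale (SE 0.51; limma adjusted p = 0.028).

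Spindle assembly, cytokinesis and the CDCA genes followed the majority. Of those named here, only Racgap1 was bright enough on the graft arrays themselves. Nusap1 and Tpx2, which bind and nucleate spindle microtubules, were each well above background on 2 of 4 graft arrays and were higher by 3.20 ± 0.28 and 2.08 ± 0.41 (SE), and Hmmr was at least 1.44-fold higher. Prc1 bundles the microtubules of the central spindle. It read -2.82, -0.57, -3.16 and -2.81 in the graft, where 1 of 4 arrays was well above background, and 2.65 to 3.96 in blood, a difference of 5.03 ± 0.47 (SE; limma adjusted p = 1.32e-08). That size rests in part on background readings, and was 2.77 at the lowest under other processing. Ect2 and Racgap1, which switch on the contractile ring, were at least 9.13-fold higher and higher by 2.13 ± 0.38 (SE). Cdca3, a mitotic-entry factor above background on no graft array, read 3.12 to 3.52 in blood and was at least 10.66-fold higher. Cdca2, which recruits a phosphatase to chromosomes late in mitosis, was at least 2.23-fold higher over the sites but above background on 1 of 5 intestine arrays and not called there (adjusted p = 0.113).

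Regulators of anaphase and cohesion were higher in 3 of 4 tested genes. Of these 4, Cdc20 was bright enough to be tested only through day 4 arrays. Cdc20 activates the anaphase-promoting complex and is its checkpoint-controlled partner. It read -1.92, 1.11, -3.36 and -0.32 in the graft, and was well above background on 2 of these 4 arrays. In blood it read 5.47, 5.58, 5.19, 4.67 and 5.50, and in intestine 3.53, 3.26, 3.62, 3.84 and 4.55. All day 4 arrays were above the graft, by a mean of 5.83 ± 0.47 (SE; limma adjusted p = 1.36e-09), a size that rests in part on background readings. Ube2c, the ubiquitin-conjugating enzyme of that complex, was higher by 3.16 ± 0.27, and Cdca5, which encodes sororin, the protector of cohesion, by 3.33 ± 0.27 (SE). Pttg1 encodes securin, the inhibitor of separase. It read 2.39, 2.43, 2.29 and 2.34 in the graft and 2.26 to 3.23 in blood but -0.17 to 2.93 in intestine, a difference of 0.11 ± 0.36 (SE; limma adjusted p = 0.805). The differences of Bub3, Cenpa, Nuf2 and Pttg1 turned negative, to between -0.13 and -0.52, when arrays were scaled on detected probes.

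**Figure D3:**
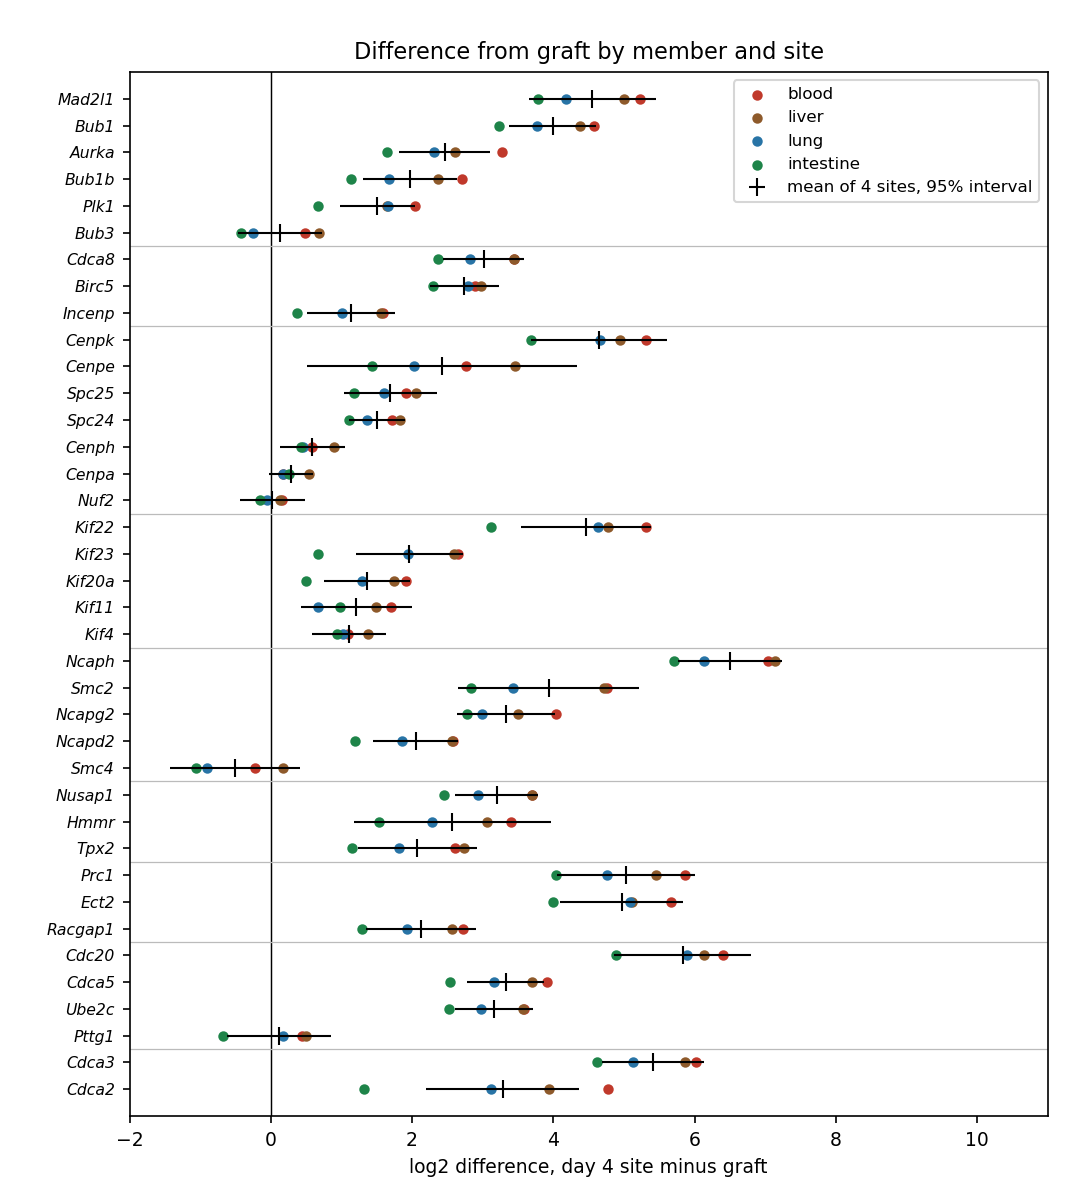
Log2 difference of each site from the graft for the 38 tested genes, with the mean of the 4 sites and its 95% interval from limma, grouped by role with a grey line between roles. Points of genes not above background in the graft, such as Ncaph, rest on background readings there; Smc4 lies at -0.50, and the intestine point is left of the blood point for all genes but Cenpa.

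Graft 2 had a mean of 0.11 over the set, the highest of the 4 graft arrays. It also had the highest summed level of 7 erythroid genes, 8.22 against 3.48 to 6.40 on the other graft arrays. The part of such cells in its readings was not tested.

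Because the genes moved together, the sequences at their starts were read for the pair of elements known from mitotic genes, the CHR element and the CCAAT box, bound by the DREAM complex and by NF-Y. RefSeq windows on GRCm38.p6, from 250 bases before to 50 bases after an annotated start, were found for 42 of the 49 genes, 47 windows in all. Aurkb, Spc24, Kif20a, Smc4, Incenp, Cdca2 and Tpx2 had none. The CHR element was searched as TTTGAA or CTTGAA on both strands and the CCAAT box as CCAAT on both strands. The first was present in 74.5% of member windows and 28.2% of all 32851 windows, and the second in 72.3% and 37.4%. A CHR element within 100 bases before to 50 after the start was present in 70.2% of member windows and 13.2% of all windows. Both elements occurred in 59.6% and 10.9%, at least 2 CCAAT boxes in 40.4% and 11.7%, and neither element in 12.8% and 45.3%. A match is a description of letters and not of binding.

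**Figure D4:**
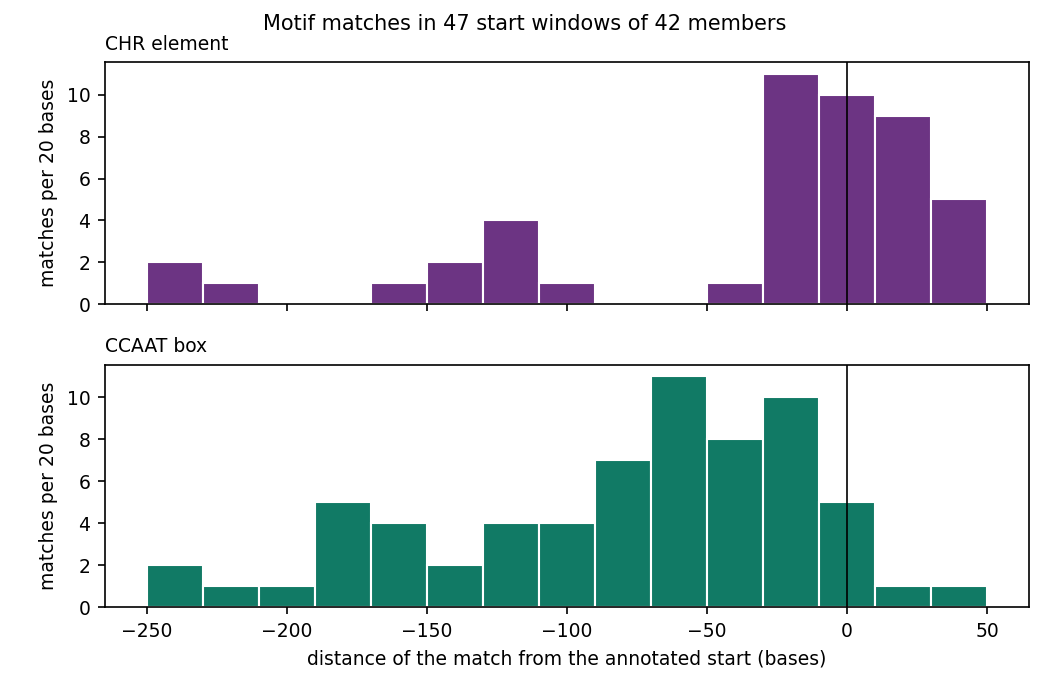
Number of matches per 20 bases against distance from the annotated start in the 47 member windows, for the CHR element (upper panel) and the CCAAT box (lower panel). CHR matches gather from just before the start to just after it, and CCAAT matches lie mostly upstream of them.

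The following starts show genes that rose with both elements (Cdc20, Ube2c), with a CCAAT box in the printed stretch (Plk1, whose CHR match lies past its end), with neither (Ncaph), then genes that were not called with both (Cenpa) or neither (Nuf2). Each is 5′ to 3′ on the gene's strand, from 250 bases before the start to 30 after it, with matches to either element in capitals.
Cdc20, chr4:118437314-118437593, minus strand: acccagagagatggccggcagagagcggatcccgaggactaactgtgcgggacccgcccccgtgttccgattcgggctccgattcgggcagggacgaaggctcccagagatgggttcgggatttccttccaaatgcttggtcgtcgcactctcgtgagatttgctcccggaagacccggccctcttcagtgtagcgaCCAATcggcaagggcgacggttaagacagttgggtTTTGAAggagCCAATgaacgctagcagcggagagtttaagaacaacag
Ube2c, chr2:164769679-164769958, plus strand: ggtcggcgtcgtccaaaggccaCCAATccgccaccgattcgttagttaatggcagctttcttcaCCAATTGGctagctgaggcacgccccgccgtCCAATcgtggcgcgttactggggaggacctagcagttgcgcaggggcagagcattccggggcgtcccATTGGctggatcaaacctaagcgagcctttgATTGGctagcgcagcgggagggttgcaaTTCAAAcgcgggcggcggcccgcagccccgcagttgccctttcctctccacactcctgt
Plk1, chr7:122159185-122159464, plus strand: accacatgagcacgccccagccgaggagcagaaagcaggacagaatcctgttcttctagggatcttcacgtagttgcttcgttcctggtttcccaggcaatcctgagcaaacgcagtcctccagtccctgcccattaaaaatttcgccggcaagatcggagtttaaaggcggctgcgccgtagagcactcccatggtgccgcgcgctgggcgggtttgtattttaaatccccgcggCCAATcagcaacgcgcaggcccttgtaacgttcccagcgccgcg
Ncaph, chr2:127133925-127134204, minus strand: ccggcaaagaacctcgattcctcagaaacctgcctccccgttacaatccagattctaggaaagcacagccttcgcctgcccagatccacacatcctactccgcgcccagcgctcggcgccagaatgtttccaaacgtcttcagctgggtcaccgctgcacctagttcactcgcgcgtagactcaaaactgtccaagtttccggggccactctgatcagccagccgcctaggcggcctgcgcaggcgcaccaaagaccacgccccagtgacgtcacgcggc
Cenpa, chr5:30666636-30666915, plus strand: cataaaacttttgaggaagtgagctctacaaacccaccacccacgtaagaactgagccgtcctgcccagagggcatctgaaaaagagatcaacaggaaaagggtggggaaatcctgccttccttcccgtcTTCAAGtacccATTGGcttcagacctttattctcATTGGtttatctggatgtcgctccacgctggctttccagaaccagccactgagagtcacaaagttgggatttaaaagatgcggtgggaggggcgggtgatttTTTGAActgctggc
Nuf2, chr1:169531435-169531714, minus strand: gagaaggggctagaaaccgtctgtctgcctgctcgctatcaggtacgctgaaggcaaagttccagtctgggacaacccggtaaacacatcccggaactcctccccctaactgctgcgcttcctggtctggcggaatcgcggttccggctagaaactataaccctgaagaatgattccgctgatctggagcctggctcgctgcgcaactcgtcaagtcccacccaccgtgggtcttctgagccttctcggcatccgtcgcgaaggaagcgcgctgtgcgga

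In these stretches, Cdc20 carries its TTTGAA between a pair of CCAAT boxes just upstream of the start. Ube2c has 6 CCAAT matches, of which 2 overlap on opposite strands (CCAATTGG). Ncaph, which was called higher, and Nuf2, which was not called, both lack these letters here, while Cenpa carries 2 of each and was not called. In these genes, picked to show different combinations, the letters alone did not sort those that rose from those that were not called. Whether they do so over all member windows was not tested.

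Between day 4 sites, blood and liver did not separate. No member was called between liver and blood, where 0% of all 9446 genes were called, and the members' median difference was -0.06, or 0.17 with 0 members called without liver 5 and intestine 5. Counts at an unadjusted limma p below 0.05 were 1 member for liver against blood and 12 for lung against blood. Lung against blood had 0 of 38 members called (1.45% of all genes) with a median of -0.72, against -0.23 over all genes. Lung against liver likewise had 0 members called (0.455% of all genes), with 7 at an unadjusted p below 0.05. Within slides, 17 of 38 members were lower in lung than in blood on all 5 slides, where 17.6% of all genes were. Without lung 1, 4 members were called between lung and blood. The sum of 7 lung epithelial genes was 2.04 to 7.42 on lung arrays and 0.57 to 1.92 on blood arrays, and its part in these values was not tested.

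The lowest site mean was that of intestine. Against blood, 22 of 38 genes were lower and none was higher, where 11.5% of all genes were called lower, and the members' median was -1.36 against -0.24 over all genes. Of the 38, 30 were bright enough on the intestine arrays themselves, and 18 of those were lower, where 11% of genes bright enough there were. All 3 tested cytokinesis genes were lower (Prc1, Ect2, Racgap1), as were 4 of 6 kinases and checkpoint genes (Aurka, Plk1, Bub1, Bub1b), 3 of 5 kinesins (Kif20a, Kif22, Kif23) and 3 of 5 condensin genes (Ncaph, Ncapd2, Ncapg2). Of the 7 centromere and kinetochore genes, 1 was lower (Cenpk). Without liver 5 and intestine 5, 6 of 6 kinases and checkpoint genes and 5 of 5 condensin genes were lower. Cytokinesis then had 3 of 3, kinesins 3 of 5 and the kinetochore role 3 of 7, where 23% of all genes were lower. No count by role was split by brightness on the intestine arrays. With all arrays kept, intestine did not differ from liver in any member (0% of all genes called; 30 members at an unadjusted limma p below 0.05) or from lung (0.371% of all genes; 6 members). Leaving out a single array gave 21 members for liver (without liver 5), 27 (without intestine 5) and 9 (without intestine 3), and 2 for lung (without intestine 5).

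Cdca2 was one of the genes lower in intestine. It read 2.21, 2.40, 1.31, 1.17 and 2.58 in blood and -0.89, -2.46, -2.78, -2.46 and 1.03 in intestine, where only intestine 5 was well above background. In liver it read 1.50, 1.92, 1.40, 1.60 and, on liver 5, -0.91. Intestine was lower than blood (limma adjusted p = 0.00626), and it was lower on all 5 slides. Kif23, also well above background on 1 intestine array, was lower than in blood as well (adjusted p = 0.0114). Without liver 5 and intestine 5, Cdca2 was at least 5.55-fold and Kif23 at least 2.22-fold lower in intestine than in blood. Kif22 was 4.58-fold lower in intestine than in blood (limma adjusted p = 0.0137), and 5.77-fold lower (adjusted p = 0.000178) without those arrays.

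The slides allow the same comparison within a batch. The median over the 38 members of intestine minus blood was -1.21, -2.05, -1.29, -1.16 and -0.51 on slides 1 to 5, so each slide gave the same sign. In 26 of 38 members intestine lay below blood on all 5 slides, where 19.4% of all genes did. Against liver the medians were -1.55, -1.98, -1.10, -1.87 and 0.81. Slide 5, which carried liver 5 and intestine 5, thus ran opposite to the others. In 35 of 38 members intestine was below liver on each of slides 1 to 4, where 28.3% of all genes were, and 35 members had intestine above liver on slide 5.

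**Figure D5:**
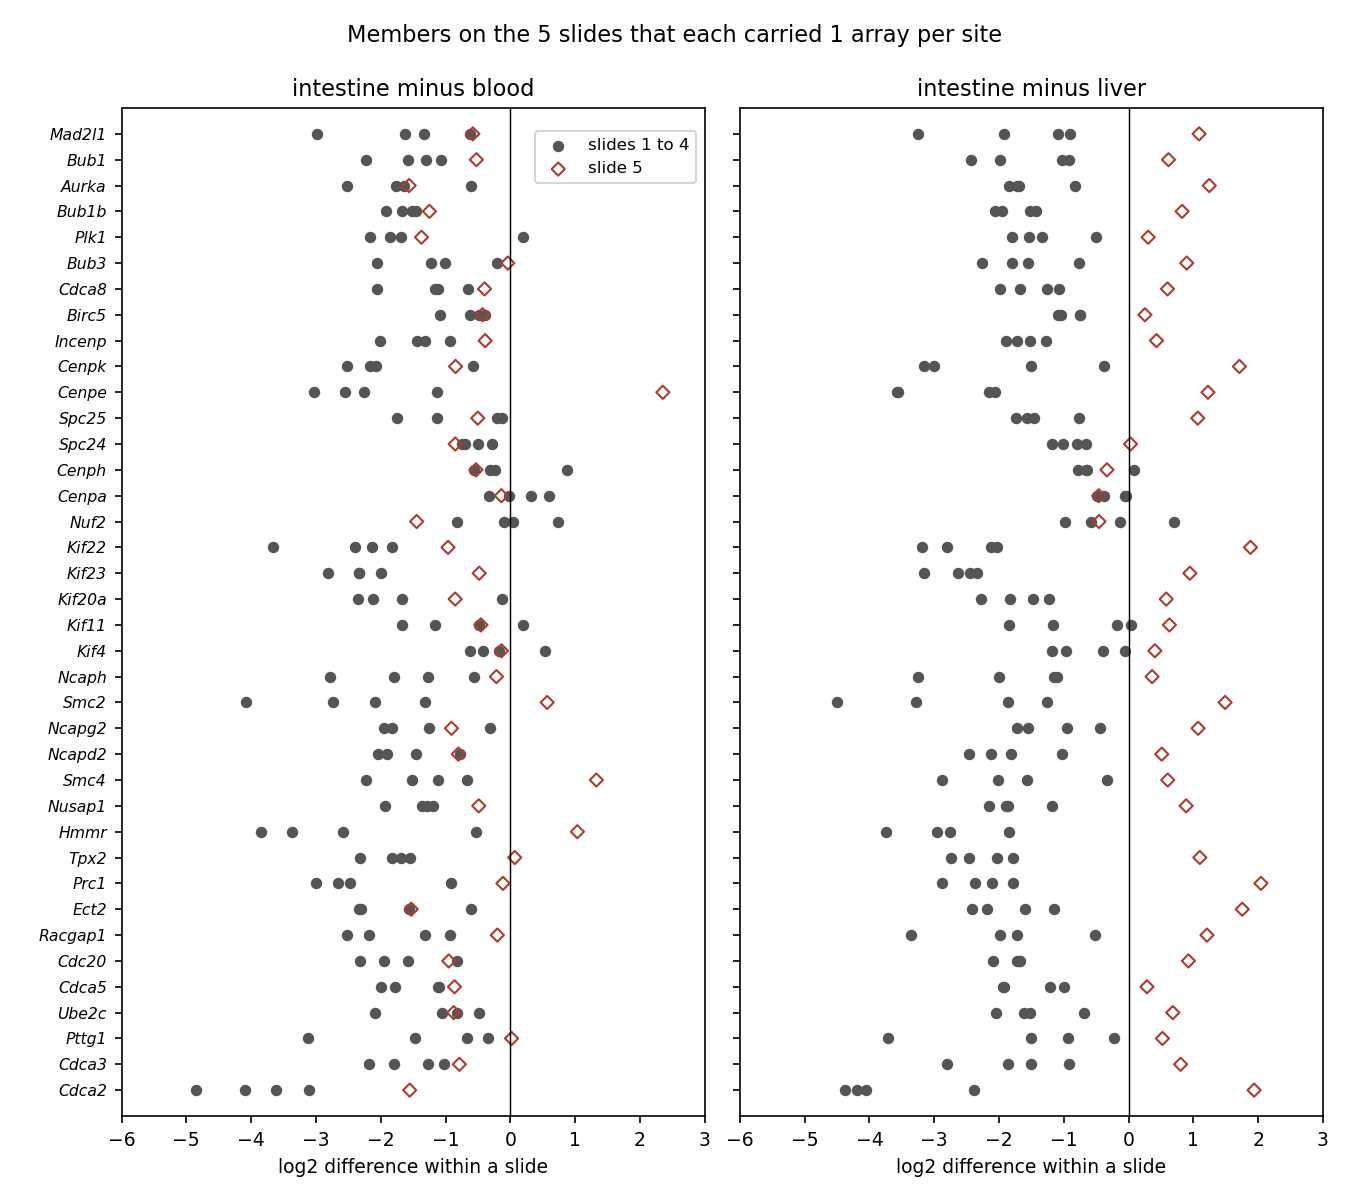
Log2 difference within each slide for the 38 tested genes, intestine minus blood (left) and intestine minus liver (right); filled points are slides 1 to 4 and open diamonds slide 5. Against blood most points lie below 0 on every slide, while against liver the diamonds of slide 5 lie on the other side of 0 from the rest.

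Without liver 5 and intestine 5, both comparisons with intestine changed. Intestine was then lower than blood in 31 members (23% of all genes), lower than liver in 32 (16.2%) and lower than lung in 4 (1.88%), which were Plk1, Kif22, Kif23 and Cdca2. The members' median was -1.58 against blood and -1.70 against liver, and -0.29 and -0.30 over all genes. Cdca2 and Kif23 were above background on none of the other 4 intestine arrays, and were at least 4.42-fold (limma adjusted p = 1.01e-05) and 2.71-fold (adjusted p = 5.78e-05) lower there than in liver. Aurka was 2.86-fold lower than in liver (limma adjusted p = 0.00272). Cenpa, Cenpe, Cenph, Nuf2, Kif11 and Kif4 were not called in intestine against either blood or liver.

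Intestine arrays also held epithelial transcripts, whose sum on blood arrays was 0.32 to 1.74. The CD8 T-cell sum was 7.99, 7.38, 9.20, 7.22 and 8.71 on intestine 1 to 5 and 8.32 to 8.89 on blood arrays. Without liver 5 and intestine 5, 3 of the 7 CD8 T-cell genes were called lower in intestine than in blood (23% of all genes). Against liver 2 of the 7 were (16.2%). Their median differences were -0.86 against blood and -1.09 against liver. Intestine 3 had an epithelial sum of 2.02, above every blood array and below the 2.06 to 2.85 of the graft arrays, and the highest CD8 T-cell sum of all arrays (9.20). Its mean over the 38 mitotic genes was 1.26, below every blood array. The sum of 9 macrophage genes was 6.66 and 6.95 on intestine 1 and 2, where 8 of the 9 were well above background, and 3.16, 1.97 and 2.67 on intestine 3 to 5. It was 2.26 to 7.12 on lung arrays and 2.29 to 3.66 on blood arrays. The part of epithelial cells and macrophages in the lower readings of intestine was not tested. The count of 22 also moved with the scaling: 12 with quantile normalisation, 8 with the median of detected probes and 3 with their 75th percentile. The higher share of all calls was 13.4% as reported and 9.4% to 33% under other scalings. Without any one of blood 2, 3 and 5 or intestine 1, 2 and 4 the count was 9 to 12, and without all arrays of slide 1 or slide 2 it was 3 or 0. All 22 genes stayed lower in intestine in each alternative tried.

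Other cell division genes, from lists outside the 49, are read against 34.3% of all genes higher and 19.1% lower than the graft, and 11.5% lower in intestine than in blood. They passed the same brightness filter, and their counts were not split by how a gene entered the test. Genes given as "at least" were above background on no graft array, so their calls were largely fixed in advance. Of 7 tested mitotic cyclins, CDKs and their regulators, 6 were higher at day 4 and 5 were lower in intestine than in blood. Ccnb1 and Ccnb2, the B-type cyclins that drive entry into mitosis, were at least 8.63-fold and 12.9-fold higher, and Ccnb1 differed by -2.33 between intestine and blood (adjusted p = 0.0108 in limma). Of 21 further kinetochore genes, 14 were higher and 1 lower. Cenpp and Mis18a had the smallest p among those higher, at least 2.13-fold and 2.84 ± 0.28 (SE), while Hjurp, the chaperone that loads Cenpa, had a difference of -0.64 (limma adjusted p = 0.0397). Of 17 further spindle and cytokinesis genes, 14 were higher, with Melk at least 5.35-fold and Cenpv by 3.75 ± 0.37 (SE). Of 9 further genes of chromosome structure 5 were higher (Stag1, Ncapd3), and of 12 subunits or inhibitors of the anaphase-promoting complex 6 were (Anapc1, Cdc26). Of 29 DNA replication genes, 24 were higher and 1 lower. Of 10 genes of quiescence and CDK inhibition, 3 were higher and 2 lower, shares near those of all genes. Without liver 5 and intestine 5, the counts higher at day 4 were 6 for the mitotic cyclins, 15 for the kinetochore genes, 13 for the spindle genes, 5 for chromosome structure, 9 for the anaphase-promoting complex, 24 for DNA replication and 2 for quiescence. Lower in intestine than in blood were then 7, 14, 11, 4, 8, 20 and 4 genes of the same lists, where 23% of all genes were.

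The 11 genes without a tested probe were Aurkb, Ttk, Cenpf, Ndc80, Kif15, Ncapg and Anln, whose brightest probe was above background on 0 of 24 arrays, and Cenpn, Kif18a, Espl1 and Kif2c, on 5, 3, 3 and 1. A probe at background says nothing of the gene's level, and with all probes kept Cenpn and Kif18a were higher at day 4 by 1.34 and 1.25 (limma adjusted p = 0.00856 and 0.00315). Probes of the same gene also disagreed. The 14 genes with several probes were read through the brightest. A second probe gave the same direction for Cenpk (3.05), Incenp (1.61), Racgap1 (3.12) and Ube2c (3.27). The other probes of Birc5, Tpx2, Cdca2, Kif23 and Nuf2 were above background nowhere. For Mad2l1 a second probe differed by 0.17 where the one used gave 4.55. For Ect2 a second probe differed by 0.57 where the one used gave 4.97, and it was higher in intestine than in blood by 0.45 where the one used was lower by 1.67.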

How the data were processed

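RNA of bead-selected CD45.1 T cells was hybridised to 24 one-colour Agilent arrays. The authors deposited, per array, a scanner file with a linear processed intensity that is background-subtracted but not normalised between arrays. The deposited files also hold the mean and background intensity and the spot flags. The file headers name Feature Extraction 9.5.1.1, while 10.7 stands in the submitters' processing notes. The authors' deposited table of log2 values matched, when tested, quantile-normalised log2 signal with each probe's median subtracted (lowest r = 0.99999 across probes, column medians -0.03 to 0.028). Its scale and direction follow from that match, and it served as an alternative.

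Values here were log2 of the processed signal minus the array's 75th percentile, without control spots and spots flagged as outliers, with spots of a probe averaged. A probe was tested if named and well above background on all, or all but 1, arrays of a group, and the brightest probe stood for a gene. Names came from the files, updated by accession (27502 probes), symbol (3549) or synonym (404), with 1526 kept and 6448 unnamed. No member probe was saturated, and the number of arrays limits the precision. One model was fitted with limma 3.58.1 in R 4.3.3, with 11 contrasts and Benjamini-Hochberg adjustment. The script was tested on simulated data.

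The members and lists were chosen with earlier results of these data known. Any member could be named, and each role has at least 1 in full; of other mitotic lists, the 2 smallest adjusted p in each direction were named. Alternatives were other background correction, scaling, dim-probe filters, slide as fixed or random block, replicate block, array weights, only the groups compared, and leaving out arrays. Leaving out whole slides, or liver 5 with intestine 5, was added after the data were seen.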

Additional observations from a re-analysis of the deposited data

Results flagged for a closer look

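In 17 of 190 groups of a member's values, 1 array lay far from the others of its group, where chance alone marks about 1 in 20 groups. Of these, 7 were the array labelled liver 5, the low end of its group: Aurka read 0.72 there, Plk1 2.30, Cdc20 3.63, Kif22 0.86, Cdca2 -0.91, Cdca5 3.49 and Ect2 0.88. Graft 2 was the high end of the graft for Aurka at 0.53, Plk1 at 1.71, Mad2l1 at -0.38, Kif22 at -0.18 and Prc1 at -0.57. Its mean over the 38 tested members, 0.11, also stood apart from the other 3 graft arrays. Lung 4 was low for Cdc20 at 4.15, Cenpk at 0.16 and Birc5 at 5.60. Blood 4 was low for Kif11 at -0.90 and blood 1 for Ncaph at 3.55.

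The difference from the graft itself differed between intestine and blood in 22 members, by the limma contrast of the sites. The difference between intestine and liver depended on slide 5, which holds both arrays that went against their labels.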

How the results depend on the processing

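Of the 33 members higher at day 4, 28 were called under every alternative (43 to 44 each). Cenpe, Cenph, Kif11, Kif4 and Incenp lost the call under at least 1, and none reversed. With only probes well above background on all arrays, 14 members could be tested, and 11 were called for the mean of the sites, 11 for blood, 12 for liver, 11 for lung and 8 for intestine against the graft, and 8 for intestine against blood. Fewer genes tested is the construction of that alternative.

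For intestine against blood (22), quantile normalisation and the deposited table each gave 12, detected-probe scaling 3 (75th percentile) and 8 (median), no filter 11, only the groups compared 8, and without lung 4 and intestine 4 13. Leaving out 1 array gave 9 to 31. Leaving out slides 1, 2, 3 and 4 gave 3, 0, 10 and 12. All 22 were lower in every alternative, and 0 were called in every one. Array weights gave 3 for lung against blood, 2 for lung against liver, 36 for intestine against liver and 6 for intestine against lung, all 0 as reported. Leaving out 1 array gave 0 to 4 for lung against blood, 0 to 27 for intestine against liver and 0 to 2 for intestine against lung. Without slide 5, intestine differed from liver in 30 and from lung in 3, and without liver 5 and intestine 5 in 32 and 4, with lung against blood at 2. The causes were not tested.

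Differences of members not called against the graft changed sign. Bub3 was -0.41 (quantile), -0.41 (deposited table), -0.29 and -0.42 (detected probes). Pttg1 was -0.45, -0.45, -0.30 and -0.43, and -6e-04 without slide 3. Cenpa was -0.13 and -0.26 (detected probes). Nuf2 was -0.39 and -0.52 (detected probes), -0.019 without lung 4 and intestine 4, -0.043 and -0.021 without slides 1 and 2, and -0.018 to 0.099 without 1 array.

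With the replicate number as a block, which is also the slide, 21 members were lower in intestine than in blood and 33 higher at day 4, and it changed no other count by over 1.5 times. Same-numbered arrays shared deviations in 18 of 30 pairs (correlation over 0.1, range -0.37 to 0.56). Because the number is also the slide, these values cannot show whether same-numbered samples came from the same animal. Signal over background limits the 11 untested members.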
